A study of Mus musculus with 192 samples.

Results

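CDK inhibitors, the antiproliferative BTG genes and the G-type cyclins were followed through single erythroid progenitors of the mouse fetal liver. The 10 members, taken by symbol from the 49466 genes of the count table, were Cdkn1a, Cdkn1b, Cdkn1c, Cdkn2c, Cdkn2d, Btg1, Btg2, Btg3, Ccng1 and Ccng2. Cells came from livers of embryonic day 14.5 mice of the strain C57/Bl6J. One plate carried colony-forming units-erythroid (CFU-E), rapidly dividing progenitors that await erythropoietin, and the other carried their ancestors, burst-forming units-erythroid (BFU-E). Each cell type filled 1 plate, so plate and cell type cannot be told apart, and the sources used here give the antibodies of the sort but neither the number of animals nor the gates that separated the 2 cell types.

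Progression from G1 into S phase is driven by cyclin-dependent kinases (CDKs), which small inhibitor proteins hold back. The CIP/KIP inhibitors p21 (Cdkn1a), p27 (Cdkn1b) and p57 (Cdkn1c) bind many cyclin and CDK pairs, while the INK4 inhibitors p18 (Cdkn2c) and p19 (Cdkn2d) bind CDK4 and CDK6. BTG proteins recruit the CCR4-NOT complex, which shortens poly(A) tails, and Btg2, Ccng1 and Cdkn1a are targets of p53. In red cell development, p27 and p18 are best known from the terminal divisions that precede cell cycle exit, later than the stages sampled here.

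The sequences before the RefSeq starts of 4 members are shown, chosen because their levels differed between groups and their windows reach at most 25 bases into the annotated gene. Btg2 and Ccng1 were higher in CFU-E cells, Btg1 was lower, and Cdkn1a was higher in non-erythroid than in erythroid-like BFU-E-plate cells. Each run is the 250 bases before the start (GRCm38.p6, read on the gene's strand), and capitals mark matches, on either strand, to the motifs spelled out after the sequences. Overlapping matches run together in capitals.
Btg2 (chr1:134079156-134079405, minus strand): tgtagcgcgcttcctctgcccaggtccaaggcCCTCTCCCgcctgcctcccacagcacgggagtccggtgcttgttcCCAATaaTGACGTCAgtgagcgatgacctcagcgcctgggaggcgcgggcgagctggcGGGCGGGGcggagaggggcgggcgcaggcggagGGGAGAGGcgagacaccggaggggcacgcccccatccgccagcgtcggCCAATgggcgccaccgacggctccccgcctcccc
Ccng1 (chr11:40755287-40755536, minus strand): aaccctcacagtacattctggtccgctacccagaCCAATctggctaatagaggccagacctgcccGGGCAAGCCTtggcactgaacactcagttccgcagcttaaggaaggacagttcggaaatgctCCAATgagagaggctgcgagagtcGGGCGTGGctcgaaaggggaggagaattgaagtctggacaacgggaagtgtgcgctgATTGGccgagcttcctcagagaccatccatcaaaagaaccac
Btg1 (chr10:96616751-96617000, plus strand): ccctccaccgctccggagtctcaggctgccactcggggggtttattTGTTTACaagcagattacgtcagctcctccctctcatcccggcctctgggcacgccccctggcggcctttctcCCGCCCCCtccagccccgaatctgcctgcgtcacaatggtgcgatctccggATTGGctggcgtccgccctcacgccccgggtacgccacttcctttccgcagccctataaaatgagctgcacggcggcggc
Cdkn1a (chr17:29090729-29090978, plus strand): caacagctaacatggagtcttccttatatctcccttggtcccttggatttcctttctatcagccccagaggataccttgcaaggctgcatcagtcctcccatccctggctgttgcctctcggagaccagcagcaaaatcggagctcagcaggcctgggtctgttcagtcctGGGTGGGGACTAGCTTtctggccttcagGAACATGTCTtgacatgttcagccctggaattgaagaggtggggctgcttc

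The Btg2 window held the cyclic AMP response element (CRE), spelled TGACGTCA, from base -166 to base -159 relative to the start, next to a CCAAT box from -173 to -169, and a further CCAAT box from -34 to -30. The CRE stood in 1 of the 12 windows of the 9 members with an entry, and in 1.55% of all 32851 windows of that length. Ccng1 had 3 CCAAT boxes and a p53 half-site from -185 to -176. The half-site was searched as RRRCWWGYYY, where R is A or G, W is A or T and Y is C or T. CCAAT stood in 7 of 12 member windows and 33.8% of all windows. Btg1 had the FOXO motif, searched as TGTTTAC, from -204 to -198, found in 1 of 12 member windows and 3.17% of all. The upstream of the 2 Cdkn1a windows had p53 half-sites from -73 to -64 and from -51 to -42, the first overlapping a CACCC box, and p53 half-sites stood in 3 of 12 member windows and 7.13% of all. CACCC boxes, searched as CCNCNCCC, stood in 10 of 12 member windows and 45.9% of all. The GATA motif, searched as AGATAA and also as TGATAA, stood in 0 of 12 member windows and 16.6% of all. The E-box, searched as CACGTG, stood in 0 of 12 and 6.02% of all. The E2F motif, searched as TTTGGCGC and also as TTTCGCGC, stood in 0 of 12 and 0.654% of all. These matches describe letters in a window and no more.

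In GRCm38 with the GENCODE M21 annotation, all 10 members are protein-coding, and counts were per gene. Cdkn1a (ENSMUSG00000023067) lies on chromosome 17 from 29090976 to 29100727, Cdkn1b (ENSMUSG00000003031) on chromosome 6 from 134920401 to 134925513, and Cdkn1c (ENSMUSG00000037664) on chromosome 7 from 143458339 to 143461050. Cdkn2c (ENSMUSG00000028551) lies on chromosome 4 from 109660876 to 109667189, and Cdkn2d (ENSMUSG00000096472) on chromosome 9 from 21288410 to 21291407. Btg1 (ENSMUSG00000036478) lies on chromosome 10 from 96617006 to 96622809, Btg2 (ENSMUSG00000020423) on chromosome 1 from 134075170 to 134079120, and Btg3 (ENSMUSG00000022863) on chromosome 16 from 78332637 to 78377192. Ccng1 (ENSMUSG00000020326) lies on chromosome 11 from 40748552 to 40755311, and Ccng2 (ENSMUSG00000029385) on chromosome 5 from 93267257 to 93276231. The libraries do not mark strand, and exons of Btg3 overlap 695 bases of Cxadr on the other strand, so reads of that stretch cannot be assigned to either gene. Cdkn1c overlaps the antisense gene Gm44732, which had 0 counts, and Cdkn1a overlaps 273 bases of a transcript of unsettled type on the other strand.

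Wells with at least 100000 counts and 2000 genes were used, 89 CFU-E cells with a median of 1005516 counts (131891 to 2992101) and 92 BFU-E-plate cells with a median of 1120768.5 (114288 to 3864040). Each cell was reduced at random to 100000 counts, so 1 count in a cell equals 10 CPM (counts scaled to one common library size), and a group's level is the CPM of its summed cells. The 92 BFU-E-plate cells split into 54 erythroid-like cells and 38 non-erythroid cells. Summed levels of 18 erythroid progenitor markers were 12943 CPM in CFU-E, 367 CPM in non-erythroid and 3220 CPM in erythroid-like cells, and those of 18 granulocyte and monocyte markers 7.08, 6007 and 219 CPM in the same order. In non-erythroid cells 13 of these 18 were at 5 CPM or more, although the sort depleted CD11b and CD16/32, and their part in the member levels of that group was not tested. The highest erythroid-like cell had 6560 CPM of them, above the non-erythroid median of 5350 CPM. Summed megakaryocyte markers were at 24.4, 156 and 490 CPM in CFU-E, non-erythroid and erythroid-like cells. Mast cell and basophil markers were at 75.2, 607 and 749 CPM in that order. Among CFU-E-plate cells 4 had counts of at least 3 of 14 lymphoid markers, whose summed level was 94.8 CPM over all 89 CFU-E cells and 3.41 CPM over the other 85. On the BFU-E plate the summed lymphoid level was 199 CPM in non-erythroid cells, with a median cell at 120 CPM, and 16.7 CPM in erythroid-like cells. No column equals another, and the 2 plates share 95 index pairs.

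Because a cell type is a single sample here, differences have no replicate check and no test. Exact 95% intervals cover counting error alone, and reads amplified by PCR are not independent molecules. A gene was measured where the mean CPM of the 2 groups was at least 5, and counted as higher or lower from a 2-fold difference in CPM. Of the 10 members, 6 were measured between CFU-E and the BFU-E plate, with 2 higher in CFU-E (Btg2 and Ccng1) and 3 lower (Cdkn2d, Btg1 and Ccng2). Over all 9456 measured genes, 6.38% were higher and 33.7% lower. Against the erythroid-like BFU-E cells alone 5 members were measured, with 2 higher (Btg2 and Ccng1) and 2 lower (Cdkn2d and Btg1), where 6.24% of 9150 genes were higher and 31% lower. The share of members lower in CFU-E is near the background. On the log2(CPM + 1) scale the median log2 fold in that comparison was -0.53 over all measured genes and -0.24 over the 5 measured members. Over all 10 members, of which 5 lay below the minimum level, it was 0.20, so the sign of the members' median depends on which are counted. Scaling by trimmed mean of M values moved the median of all genes to 0.05 and median-of-ratios factors moved it to 0.10. With trimmed-mean factors the log2 folds against erythroid-like BFU-E were 3.42 for Btg2, 1.77 for Ccng1, -1.95 for Cdkn2d and -1.85 for Btg1, the same directions as without them.

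**Figure D1:**
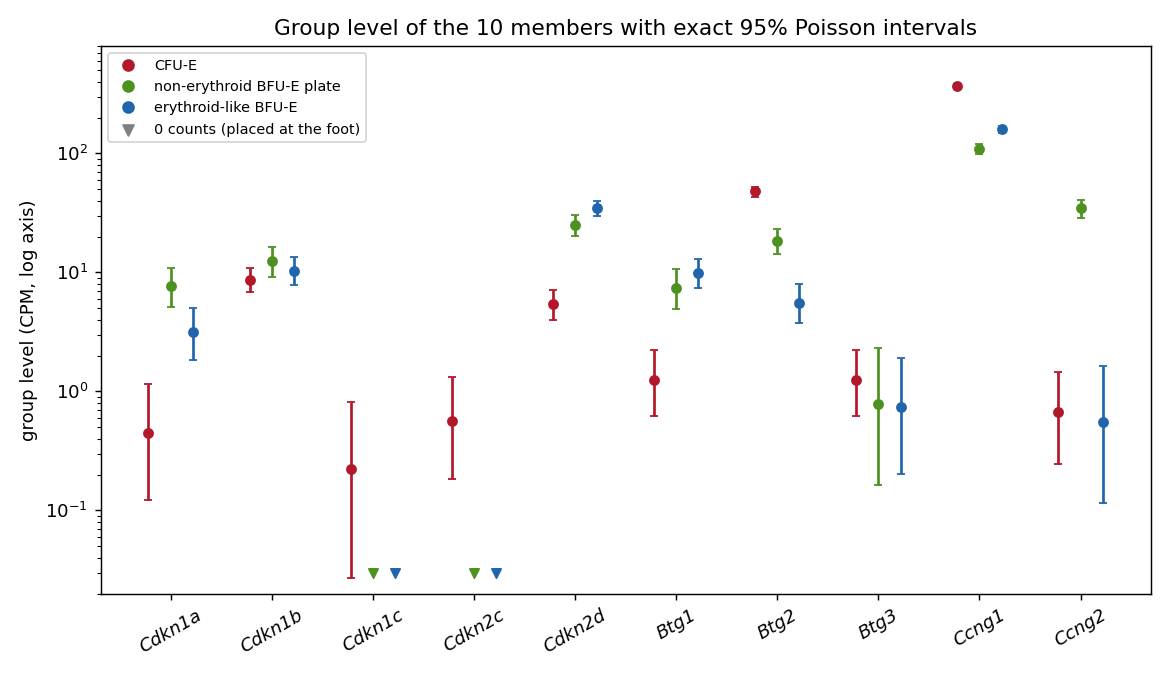
Group level of each member in CPM on a log axis for CFU-E (red), non-erythroid BFU-E-plate (green) and erythroid-like BFU-E cells (blue), with exact 95% Poisson intervals; triangles at the foot mark 0 counts. Ccng1 was at 368 CPM in CFU-E and Btg2 at 47.9 CPM, each above both BFU-E-plate groups, and Ccng2 was at 34.5 CPM in non-erythroid cells, against 0.556 CPM in erythroid-like BFU-E.

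Ccng1, cyclin G1, was the member with the highest level per exonic length in all 3 groups. It was at 368 CPM (355 to 381) in CFU-E, 109 CPM (99.2 to 121) in non-erythroid and 160.2 CPM (149.7 to 171) in erythroid-like cells. Single cells ran from 0 to 1340 CPM with a median of 280 CPM in CFU-E, from 0 to 460 CPM with a median of 55 CPM in non-erythroid cells, and from 0 to 650 CPM with a median of 130 CPM in erythroid-like cells. The groups overlapped widely, but 88 of 89 CFU-E cells had a count, against 28 of 38 non-erythroid and 45 of 54 erythroid-like cells. Ccng1 was 2.64-fold higher in CFU-E than over the BFU-E plate (2.48 to 2.82) and 2.30-fold higher than in erythroid-like BFU-E (2.13 to 2.48).

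Btg2, the p53-inducible antiproliferative gene also called Tis21, had the highest ratio of CFU-E to erythroid-like BFU-E among the 5 measured members. Its level was 47.9 CPM (43.4 to 52.6) in CFU-E, 18.4 CPM (14.4 to 23.3) in non-erythroid and 5.56 CPM (3.75 to 7.93) in erythroid-like cells. CFU-E cells ran from 0 to 330 CPM with a median of 20 CPM, while the medians of both BFU-E-plate groups were 0, with highest cells at 150 CPM (non-erythroid) and 130 CPM (erythroid-like). A count was found in 61.8% of CFU-E cells (Clopper-Pearson 50.9% to 71.9%), 28.9% of non-erythroid (15.4% to 45.9%) and 9.26% of erythroid-like cells (3.08% to 20.3%). The CFU-E level was 4.40-fold that of the BFU-E plate (3.53 to 5.53) and 8.62-fold that of erythroid-like BFU-E (5.95 to 12.9). Only 5 of 54 erythroid-like cells had counts and 3 of them held 93.3% of these. In cells with odd label numbers Btg2 was at 33.7 CPM in CFU-E and 0.333 CPM in erythroid-like BFU-E, and in cells with even numbers at 63 and 12.1 CPM.

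Cdkn2d, the INK4 inhibitor p19, had the highest level per exonic length of the 5 CDK inhibitors in all 3 groups and was lower in CFU-E. It was at 5.39 CPM (3.98 to 7.15) in CFU-E, 25 CPM (20.2 to 30.6) in non-erythroid and 34.4 CPM (29.7 to 39.8) in erythroid-like cells. Counts were found in 19 of 89, 16 of 38 and 27 of 54 cells in that order, with highest cells at 60, 240 and 230 CPM. The level was 5.66-fold lower in CFU-E than over the BFU-E plate (4.16 to 7.86) and 6.39-fold lower than in erythroid-like BFU-E (4.63 to 8.97).

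Btg1, the closest relative of Btg2 among the members, went the other way from it. It was at 1.24 CPM (0.617 to 2.21) in CFU-E, 7.37 CPM (4.90 to 10.6) in non-erythroid and 9.81 CPM (7.35 to 12.8) in erythroid-like cells. Only 5 of 89 CFU-E cells had a count, and 1 of them held 54.5% of the 11 counts, against 12 of 38 non-erythroid and 21 of 54 erythroid-like cells, whose highest cells were at 50 CPM in both groups. Btg1 was 7.12-fold lower in CFU-E than over the BFU-E plate (3.78 to 14.8) and 7.94-fold lower than in erythroid-like BFU-E (4.10 to 16.9). The mean Btg1 level lies close to the minimum of 5 CPM and fell below it in both comparisons with raw sums, with either scaling or without the highest cell of each group, which ends its count as lower. Its 2 named pseudogenes had 0 counts.

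**Figure D2:**
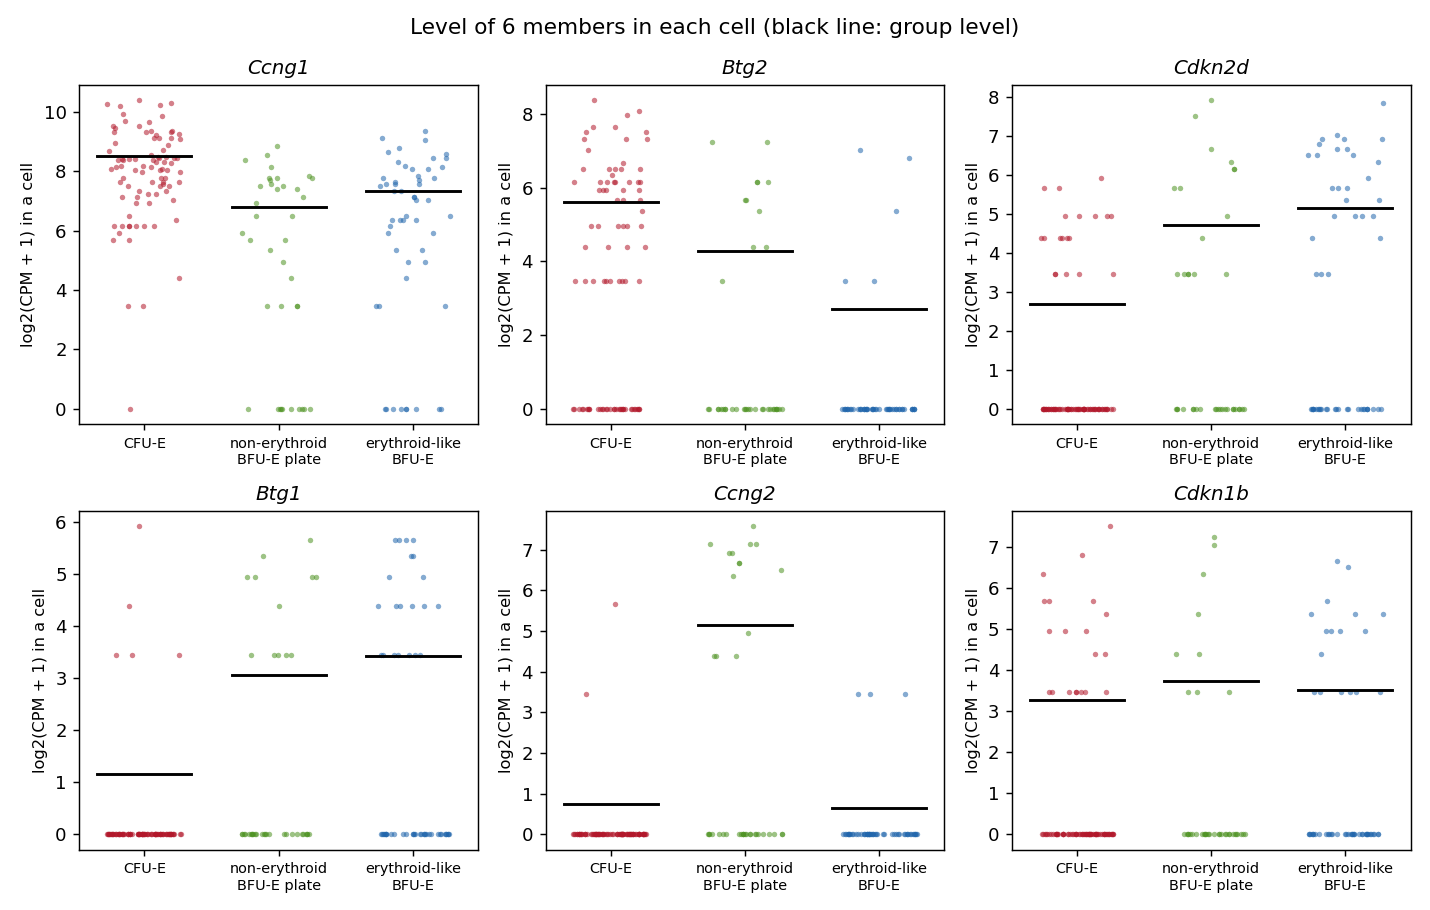
Level of 6 members in each cell as log2(CPM + 1); points are CFU-E (red), non-erythroid BFU-E-plate (green) and erythroid-like BFU-E cells (blue), spread sideways at random, and black lines are group levels on the same scale. Points at 0 are cells with no count, which are few for Ccng1 (1 of 89 CFU-E cells) and most for Btg1 and Ccng2 in CFU-E.

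Ccng2, cyclin G2, a target of FOXO factors linked to quiescence, had most of its counts in non-erythroid cells. It was at 0.674 CPM (0.247 to 1.47) in CFU-E, 34.5 CPM (28.8 to 40.9) in non-erythroid and 0.556 CPM (0.115 to 1.62) in erythroid-like cells. A count was found in 14 of 38 non-erythroid cells, with a median of 100 CPM among these and a highest cell at 190 CPM, and in 3 of 54 erythroid-like cells at 10 CPM each. Of the 6 counts in CFU-E, 5 lay in 1 cell, which had counts of 9 lymphoid markers, and the 85 cells without lymphoid markers had 1 count. Without reduction to equal depth, Ccng2 was at 30.9 CPM in non-erythroid and 2.10 CPM in erythroid-like cells, with counts in 17 of 38 and 14 of 54 cells.

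Cdkn1a, p21, was at 0.449 CPM (0.122 to 1.15) in CFU-E, 7.63 CPM (5.11 to 11) in non-erythroid and 3.15 CPM (1.83 to 5.04) in erythroid-like cells. All 4 CFU-E counts lay in 2 cells with lymphoid markers; the other 85 CFU-E cells had 0 counts at equal depth and 0 in the full counts. A limit of 3 cells of the total puts the share of cells with a count at up to 3.53%, and the Clopper-Pearson upper bound is 4.25%. In erythroid-like BFU-E 13 of the 17 counts came from 1 cell, at 130 CPM. Without the highest cell of each group Cdkn1a was at 6.76 CPM in non-erythroid and 0.755 CPM in erythroid-like cells. In the non-erythroid cells the counts were spread over 13 of 38 cells, none above 40 CPM.

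Cdkn1b, p27, differed least of the measured members. Its level was 8.65 CPM (6.83 to 10.8) in CFU-E, 12.4 CPM (9.09 to 16.4) in non-erythroid and 10.4 CPM (7.83 to 13.5) in erythroid-like cells, with counts in 20 of 89, 9 of 38 and 17 of 54 cells. The ratio of CFU-E to erythroid-like BFU-E was 0.834 (0.584 to 1.20), a counting interval that includes no difference. The top 3 cells held 48.1% of the CFU-E counts and 42.9% of the erythroid-like ones. The interval does not cover that spread between cells, so it cannot leave out a 2-fold difference. On the log2(CPM + 1) scale the ratio was -0.24, and it turned to 0.28 with trimmed-mean factors and 0.33 with median-of-ratios factors.

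The remaining 3 members were near the limit of detection. Cdkn2c, p18, had 5 counts in 5 CFU-E cells and 0 in both BFU-E-plate groups; in the full counts 11 of 89 CFU-E cells (12.4%) and 0 of 92 BFU-E-plate cells had a count. The share of BFU-E-plate cells with a count could reach 3.26% by the limit of 3 cells and 3.93% by the Clopper-Pearson upper bound. Cdkn1c, p57, had 2 counts in 1 CFU-E cell and 0 elsewhere at equal depth, and in the full counts 3 CFU-E, 0 non-erythroid and 2 erythroid-like cells had a count. Btg3, another BTG family member, was at 1.24 CPM (0.617 to 2.21) in CFU-E, 0.789 CPM (0.163 to 2.31) in non-erythroid and 0.741 CPM (0.202 to 1.90) in erythroid-like cells, with intervals that overlap. Over the CFU-E cells 3 counts equal 0.337 CPM, and a level below that, such as Cdkn1c at 0.225 CPM, rests on too few counts to compare groups.

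Per kilobase of exon, the members in CFU-E fell in the order Ccng1 (105 CPM per kb), Btg2 (17.4), Cdkn2d (3.43) and Cdkn1b (1.90), each with an interval apart from its neighbours. The other 6 lay between 0.110 and 0.308 CPM per kb with overlapping intervals. In non-erythroid cells the order was Ccng1 (31.2 CPM per kb), Cdkn2d (15.9), Btg2 (6.72), Ccng2 (6.32), Cdkn1b (2.72), Cdkn1a (2.15) and Btg1 (1.40), of which Btg2 and Ccng2, and neighbours among the last 3, overlap. In erythroid-like BFU-E it was Ccng1 (45.6 CPM per kb), Cdkn2d (21.9), Cdkn1b (2.28), Btg2 (2.03), Btg1 (1.86) and Cdkn1a (0.886), with overlapping intervals between neighbours among the last 4. Cells held counts of few members at once, with a median of 2 in CFU-E, 3 in non-erythroid and 2 in erythroid-like cells.

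Between non-erythroid and erythroid-like cells of the BFU-E plate 7 members were measured. Non-erythroid cells had 3 of them at least 2-fold higher and 0 at least 2-fold lower, where 14.3% of 9953 measured genes were higher and 8.83% lower. Ccng2 was 62.1-fold higher on 3 counts in erythroid-like cells (20.8 to 305), Btg2 3.32-fold higher (2.13 to 5.27) and Cdkn1a 2.42-fold higher (1.29 to 4.70). The size of the Ccng2 ratio depended on the reduction to equal depth. In the full counts 14 of 54 erythroid-like cells had Ccng2, and the levels gave a ratio below that interval. Ccng1 was 1.46-fold lower (1.30 to 1.65) and Cdkn2d 1.38-fold lower (1.07 to 1.78), an order that turned to 30 against 27.4 CPM for Cdkn2d with 50000 counts a cell. Cdkn1b and Btg1 had intervals that include no difference. The Btg2 difference was small in cells with even label numbers, 19.5 CPM against 12.1 CPM, and large in cells with odd numbers, 17.2 CPM against 0.333 CPM. In non-erythroid cells 7 of the 11 cells with Btg2 also had Ccng2, where the shares alone give 4.05. Many pairs were counted and none was tested. Other pairs with Ccng2 there gave 8 against 5.89 (Cdkn2d), 6 against 4.42 (Btg1) and 5 against 4.79 (Cdkn1a). Those with Ccng1 (10 against 10.3), Cdkn1b (3 against 3.32) and Btg3 (0 against 1.11) lay below the shares.

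**Figure D3:**
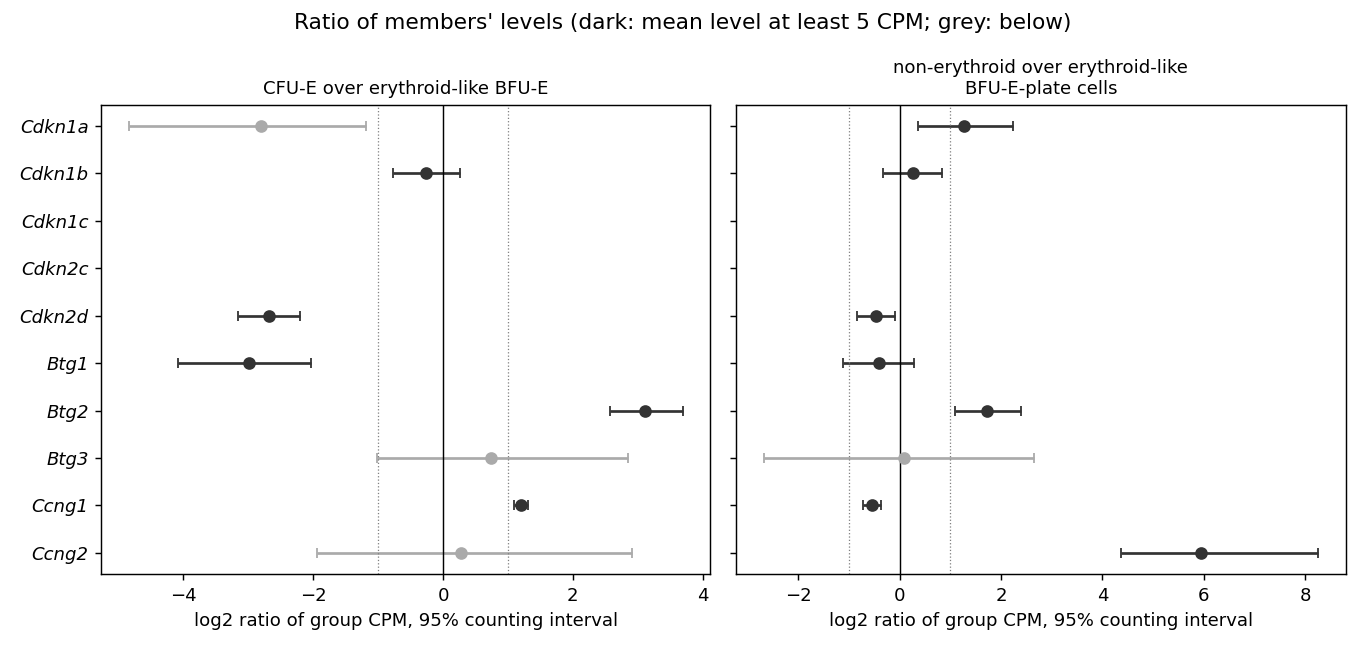
Log2 ratio of group CPM with 95% counting intervals for CFU-E over erythroid-like BFU-E (left) and non-erythroid over erythroid-like BFU-E-plate cells (right); dotted lines mark 2-fold, dark points have a mean level of at least 5 CPM and grey ones less, and members with counts in neither or only 1 of the groups have no point. Btg2 (8.62-fold) and Ccng1 (2.30-fold) lie right of the 2-fold line on the left, and Ccng2 (62.1-fold) lies farthest right on the right. The Ccng2 point rests on 3 counts in erythroid-like cells, and its ratio was smaller without reduction to equal depth.

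Within each plate the members were set against an erythroid maturation score, the mean log2(CPM + 1) of 30 globin, heme, membrane and erythroid regulator genes. Btg2 was higher in CFU-E cells with a higher score, with a Spearman rho of 0.58 over 89 cells and 0.60 over the 85 without lymphoid markers. All cells share 1 plate and library preparation, and Btg2 also had a rho of -0.32 with the number of genes found in a cell and 0.30 with an S phase score; their part in the relation was not tested. Divided, after these values were seen, into 3 bins by the score, the 85 CFU-E cells had Btg2 at 14.1 CPM (10.1 to 19.2) in the lowest bin of 29 cells, 43.6 CPM (36.2 to 52) in the middle bin and 92.9 CPM (81.9 to 105) in the highest bin, both of 28 cells. Counts were found in 8 of 29, 21 of 28 and 24 of 28 cells in that order. Highest against lowest, the ratio was 6.57 (4.71 to 9.37), and 10 cells lay within 0.1 of each boundary. The 3 genes with the cell-to-cell pattern most like Btg2, of 5587 compared, were Hbb-bs, Hba-a1 and Hbb-bt, hemoglobin chains, with rho of 0.57, 0.52 and 0.51. They also sit in the maturation list, of which 15 of 30 genes had a rho of at least 0.3 with Btg2. In erythroid-like BFU-E, over 54 cells and 5761 genes, the closest gene had a rho of 0.57 for Btg1 (Nlk), 0.52 for Cdkn2d (Celf2), 0.50 for Cdkn1b (Srp9) and 0.60 for Ccng1 (AI506816). Each of these was picked as the highest of 5761 values over few cells. The height that such a pick reaches among unrelated genes was not tested, so these genes are not shown to be partners. The genes closest to Btg2 were picked in the same way.

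In erythroid-like BFU-E cells, whose scores ran from 1.85 to 5.32 and so barely reached the lowest CFU-E score of 5.21 among cells without lymphoid markers, Btg2 counts lay mostly in the lowest bin. Btg2 was at 16.1 CPM (10.8 to 23.1) in the lowest 18 cells, 0.556 CPM in the middle 18 and 0 in the highest 18, with 29 of its 30 counts in 4 cells. Cdkn2d was at 58.9 CPM (48.2 to 71.2) in the lowest bin, 34.4 CPM (26.4 to 44.2) in the middle bin and 10 CPM (5.93 to 15.8) in the highest, with counts in 13, 9 and 5 of 18 cells and a rho of -0.39 over 54 cells. Median G2 and M phase scores of these bins were 5.87, 6.53 and 6.70 and median S phase scores 7.33, 7.67 and 7.67; their part in the differences was not tested. Btg1 was at 18.3 CPM (12.6 to 25.7), 5 CPM (2.29 to 9.49) and 6.11 CPM (3.05 to 10.9) in the same order, with a rho of -0.29, too weak for a finding. Ccng1 was at 145.6, 132.8 and 202 CPM across the BFU-E bins and at 410.3, 401 and 313 CPM across the CFU-E bins. Its rho with the score was 0.15 over the 54 BFU-E cells and -0.12 over the 85 CFU-E cells, both too weak for a finding.

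Cdkn1b in CFU-E was at 1.38 CPM (0.376 to 3.53) in the lowest maturation bin, 8.57 CPM (5.49 to 12.8) in the middle bin and 15.7 CPM (11.4 to 21.1) in the highest. Cells with a count numbered 3, 8 and 7, so the difference lies mostly in the counts of few cells, and the rank correlation over 85 cells was 0.19, too weak for a finding. In erythroid-like BFU-E it was at 11.1, 8.89 and 11.1 CPM across the bins.

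**Figure D4:**
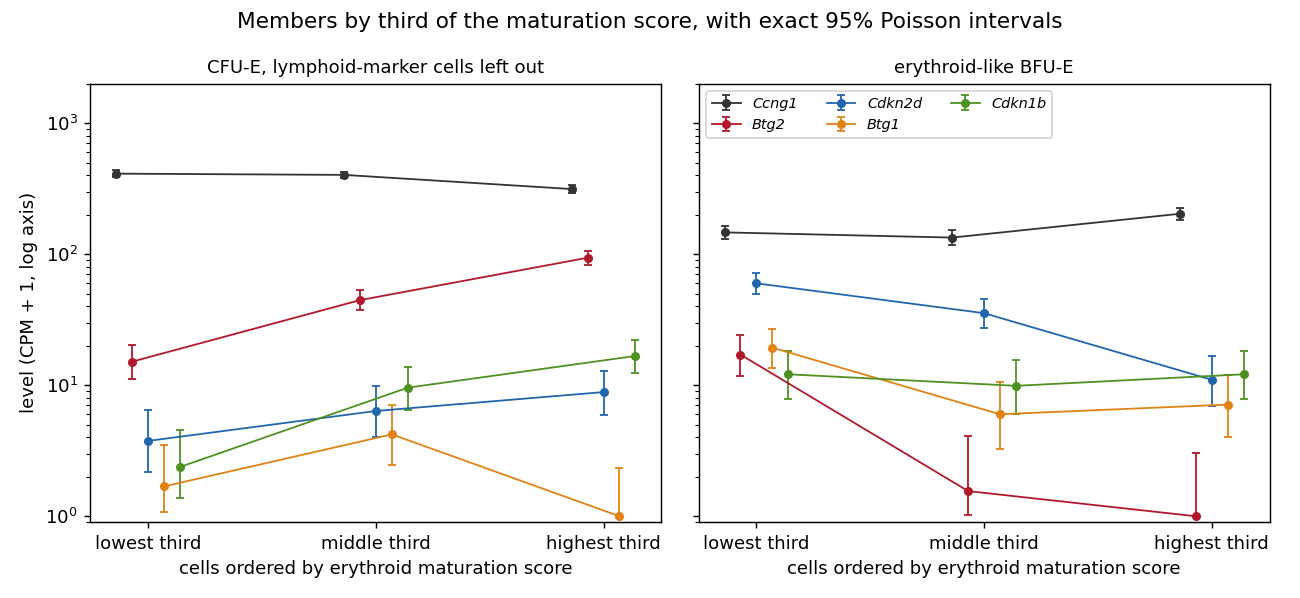
Level of 5 members as CPM + 1 on a log axis in the lowest, middle and highest bin of cells ordered by the erythroid maturation score, for CFU-E cells without lymphoid-marker cells (left) and erythroid-like BFU-E cells (right), with exact 95% Poisson intervals. Btg2 was at 14.1, 43.6 and 92.9 CPM across the CFU-E bins. Cdkn2d was at 58.9, 34.4 and 10 CPM across the BFU-E bins and at 2.76, 5.36 and 7.86 CPM across the CFU-E bins.

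CFU-E cells were also split at the median of a G2 and M phase score, into 44 high and 45 low cells, with 4 cells within 0.1 of the median. Of 4 members measured, G2/M-high cells had 1 past 2-fold above G2/M-low cells and 0 below, where 3.48% of 8222 genes were higher and 4.32% lower. The member was Cdkn1b, at 12.5 CPM in G2/M-high and 4.89 CPM in G2/M-low cells, 2.56-fold (1.53 to 4.40). It depended on how the cells were sampled: at 50000 counts a cell the levels were 8.64 and 8.44 CPM, and in the full counts 6.99 and 4.56 CPM. The rank correlation of Cdkn1b with the score was 0.18, too weak for a finding. Btg2 was at 47.5 CPM in G2/M-high and 48.2 CPM in G2/M-low CFU-E cells, with a ratio of 0.985 (0.811 to 1.20), and Ccng1 at 404 and 332 CPM, a ratio of 1.22 (1.14 to 1.31). The rho of Ccng1 with the score was 0.0042, too weak for a finding. Its log2 fold ran from -0.12 to 0.63 over 15 alternatives, so its sign depended on the setting. In erythroid-like BFU-E, split the same way into 27 and 27 cells, Cdkn1b was at 14.1 CPM in G2/M-high and 6.67 CPM in G2/M-low cells, 2.11-fold (1.18 to 3.93). Its counts lay in 10 and 7 of the 27 cells, and the highest cell held 26.3% of the G2/M-high counts. The rho with the score was 0.15 over these 54 cells, too weak for a finding. That ratio was not recomputed under other settings. Btg2 there was at 1.85 and 9.26 CPM, with its 30 counts in 5 cells. By comparison in CFU-E, Ccnb1, the mitotic cyclin B1 that is part of the score, was at 935 and 321 CPM.

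Among 12 measured CDKs and cyclins on which the inhibitors act, CFU-E had 3 past 2-fold above erythroid-like BFU-E and 2 past it below, and their median log2 fold was 0.23. Over all measured genes 6.24% were above, 31% below and the median was -0.53, the values to read each of the next lists against. Ccne1, cyclin E1, was at 590.1 CPM in CFU-E and 63.3 CPM in erythroid-like BFU-E, 9.32-fold higher (8.35 to 10.4), and Ccna2, cyclin A2, was 4.03-fold higher (3.83 to 4.24). Cdk6, a target of Cdkn2d, was at 159.7 CPM in CFU-E and 1046 CPM in erythroid-like BFU-E, 6.55-fold lower (6.18 to 6.95), and its partner Ccnd2 was 2.91-fold lower (2.69 to 3.14). Cdk4, the other INK4 target, was at 1230.1 CPM in CFU-E and 651 CPM in erythroid-like BFU-E, and Cdk2 at 114 and 161 CPM. In non-erythroid cells Ccnd1, cyclin D1, was 15.1-fold higher than in erythroid-like cells, at 81.1 and 5.37 CPM.

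Of 11 measured genes of the ubiquitin ligases that degrade p27 and p21, CFU-E had 1 past 2-fold above erythroid-like BFU-E and 3 below, near the 31% below over all genes, and the median log2 fold was -0.32 against -0.53. The 2 largest ratios were those of Rnf123 (2.10-fold higher) and Cul4a (1.82-fold), and the 2 smallest those of Rbx1, the RING subunit, and Cks1b, a cofactor of Skp2, at 3.47-fold and 2.49-fold lower. Skp2, the F-box protein that recognises p27, was at 74.9 and 112 CPM. The CCR4-NOT list holds the complex through which BTG proteins act, and also Prmt1, a BTG partner. Of the 15 measured genes of that list, 0 were past 2-fold above and 5 below, against 31% below over all genes. Their median was -0.75 against -0.53. The share below was thus near the background. Cnot7 and Cnot8, the deadenylases that bind BTG proteins, were at 154 and 92.4 CPM in CFU-E and at 150 and 137 CPM in erythroid-like BFU-E. Prmt1, a methyltransferase that binds Btg1 and Btg2, was 4.28-fold lower (3.28 to 5.62), and Cnot6l 3.61-fold lower; the largest ratio was 1.16, for Cnot11.

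Of 18 measured genes of the p53 pathway beside the members, CFU-E had 1 past 2-fold above erythroid-like BFU-E and 7 below, against 6.24% above and 31% below over all genes, and the median log2 fold was -0.38 against -0.53. Without the lymphoid-marker cells 0 were higher and 7 lower. Trp53 was at 195 CPM in CFU-E and 454 CPM in erythroid-like BFU-E, 2.33-fold lower (2.19 to 2.47), while Mdm2, the ligase that p53 induces, was at 78.3 and 64.8 CPM. The largest ratios were those of Ppm1d, a phosphatase that p53 induces (2.24-fold higher, 1.44 to 3.60), and Sesn1 (1.43-fold), and the smallest those of Polk, a translesion polymerase (6.07-fold lower), and Rrm2b, a ribonucleotide reductase subunit (4.02-fold lower). In non-erythroid against erythroid-like cells 3 p53 pathway genes were higher and 3 lower of 18, where 14.3% of all genes were higher and 8.83% lower, among them Pmaip1 (14.2-fold higher) and Sesn1 (3.46-fold higher), and Sesn2, at 2.11 and 18.3 CPM.

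Of 9 measured FOXO factors and targets, CFU-E had 1 past 2-fold above erythroid-like BFU-E and 3 below, again near the 31% below over all genes, and the median log2 fold was -0.81 against -0.53. Irs2 was 2.98-fold higher (2.03 to 4.50) and Cat, catalase, 1.54-fold higher. Pik3ip1, a PI3 kinase inhibitor, was at 0.562 and 13.5 CPM, and Txnip 3.21-fold lower. In non-erythroid against erythroid-like cells, where Ccng2 was higher, 1 of 9 was higher, Sesn3, at 12.9 and 0.926 CPM, and 0 were lower. Of 8 relatives of the members 4 were measured, and 1 was lower in CFU-E than in erythroid-like BFU-E, Ccni, a cyclin I gene, at 14.4 and 40.6 CPM. The largest ratios among them were those of Ccnf, cyclin F, at 270.3 and 172 CPM, and Cdkn3, a CDK phosphatase, at 15.7 and 11.9 CPM. Tob1, of the same antiproliferative family as the BTG genes, was at 3.93 CPM (2.74 to 5.47) in CFU-E, with counts in 11 of 89 cells, and had 0 counts in non-erythroid and 1 in erythroid-like cells. Tob2 was at 11.3, 18.2 and 12 CPM in CFU-E, non-erythroid and erythroid-like cells, and Cdkn2a and Btg4 had 0 counts in all 3.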

How the data were processed

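Single cells were sorted into plates and profiled by SmartSeq2 with Nextera XT, per the labels' protocols, a method that marks neither strand nor molecule. The authors deposited unnormalized counts, in whole reads for each gene and well. STAR 2.4, featureCounts and GRCm38 are named for them, per the submitters' processing notes. No source used here names the annotation release, the strand setting or how multiply mapped reads were treated. Column names tied 191 of 192 columns to a cell, and 1 unmatched column was not used.

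Cells under 100000 counts or 2000 genes were left out (6 CFU-E and 4 BFU-E). The rest were thinned without replacement to 100000 counts (seed 1), summed per group and scaled to CPM. Intervals (95%) were exact Poisson for levels, conditional binomial for ratios and Clopper-Pearson for shares. Ratios rest on counts and log2 folds on log2(CPM + 1). BFU-E-plate cells were divided by Ward clustering (10 principal components, 1000 variable genes, members left out), where 2 clusters gave the highest mean silhouette; CFU-E cells, with no silhouette of at least 0.2, were kept together. No doublet caller was run. Named genes were all members, the 2 largest and 2 smallest ratios of each pathway list and a few partners; for likeness, up to 3 genes with a rho of at least 0.4, and a rho under 0.3 was read as no finding. The members and lists were chosen with earlier results of these data known. Promoter sequences are from RefSeq (GRCm38.p6). The calculation of the ratio was tested on simulated counts in which all cells of a group shared 1 profile. That test does not cover spread between cells or genes at low levels. Alternatives covered cell filters, thinning, scaling (edgeR 4.0.16), minimum levels, subsets of cells and clustering. Python 3.11.15, numpy 2.4.6, scipy 1.17.1 and scikit-learn 1.9.0 were used.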

Additional observations from a re-analysis of the deposited data

How the results depend on the processing

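No paired analysis was possible because each cell type is 1 sample and the label numbers only name cells. Of 527 recomputed log2 folds of members, 447 lay within the counting interval of the value reported and 80 lay outside it. The 447 include values that could not move and so show no stability. A minimum level does not change a fold, and the clusters from 500 variable genes held the same cells. Of the 527, 0 changed the sign of a difference counted as at least 2-fold. Signs of smaller differences, such as that of Cdkn1b, did change. Of 48 rank correlations 35 moved by at most 0.1. Between CFU-E and the BFU-E plate, the 3 lower members became 0 with a minimum level of 20 CPM, 4 with a minimum of 1 CPM, and 2 with raw sums, either scaling, even label numbers or without each gene's highest cell. Between CFU-E and erythroid-like BFU-E, 1 member was lower in place of 2 with raw sums, trimmed-mean factors, median-of-ratios factors or without each gene's highest cell, and 0 with a minimum of 20 CPM; Btg1, whose mean level is close to the minimum of 5 CPM, is then not measured. Its log2 fold ran from -2.68 to -1.81 over 17 alternatives. Between non-erythroid and erythroid-like cells 3 were higher; with a minimum of 20 CPM 0 were higher, with even label numbers 1 was higher and 2 lower, and at 50000 counts 1 was lower. Between G2/M-high and G2/M-low CFU-E cells, the 1 higher member became 0 with the stricter cell filter, raw sums, mean CPM, 50000 counts, a minimum of 20 CPM or odd label numbers, and 2 with another thinning seed. Members under 5 CPM rest on few counts, and differences between plates or animals have no estimate.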

Other observations

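The erythroid-like BFU-E cell with the most Cdkn1a stood out in more than 1 member, and was singled out after its values were seen. It had Cdkn1a at 130 CPM, against a median of 0 over the 54 cells, and the highest Ccng1, at 650 CPM against a median of 130 CPM. Btg1 was at 50 CPM, while Btg2 and Cdkn2d had no count. Its G2 and M phase score of 1.03 was above that of 1 cell only, against a median of 6.55, and its S phase score was 7.03 against 7.52. Of the p53 pathway, Xpc, a DNA damage sensor, was at 240 CPM, Pidd1, a death-domain adaptor, at 210 CPM and Ercc5, a repair nuclease, at 180 CPM, each above the level in 51 of the 54 cells, while Mdm2 was at 10 CPM against a median of 50 CPM and Bax had no count. Trp53 was at 380 CPM against a median of 450 CPM, and Sesn1 and Polk had no count against medians of 40 and 20 CPM. Most genes of that list had no count in the cell, many with a median of 0 as well. The well held 730557 counts and 1 lymphoid marker. It is 1 cell, so nothing was tested on it.

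The CFU-E-plate cell with 5 of the 6 Ccng2 counts, also singled out after its values were seen, had lymphoid markers and the highest G2 and M phase score of 89 cells, 8.52. It also had Cdkn1a at 20 CPM, Cdkn1b at 40 CPM and Cdkn2d at 30 CPM, with Ccng1 at 20 CPM against a median of 280 CPM. Its maturation score was 1.88 against a median of 7.26.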
